A study of Mus musculus with 2 samples.

Results

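The secreted acute-phase and antibacterial proteins of the lung lining, encoded by Lcn2, Lrg1, Saa3, Itih4, Hp, Slpi, Lyz1 and Lyz2, were followed through every cell class of 2 mouse lung libraries. The 8 genes are 8 of the 27998 rows of the deposited tables and were found by symbol, each on 1 row. They were named from earlier results on these same libraries, so their levels and shifts are given as a description and carry no test. Whole lungs of male C57Bl/6J mice aged 3 months were sequenced as single cells in droplets, 14 days after 100 µg of titanium dioxide (TiO2) or crocidolite asbestos had been placed in the trachea. Asbestos fibres scar the lung, and TiO2 is a particle used as a comparison. The labels call 1 mouse control and 1 mouse fibrosis without saying which received which particle, and the names control and fibrosis are used below. Each group is 1 mouse, so differences between the libraries cannot be set against the spread between mice, and the intervals below cover counting error alone.

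Acute-phase proteins are made in bulk by the liver during infection or injury, when interleukin-6 type cytokines act through the STAT3 and C/EBP transcription factors, and several are also made by lung epithelium. Lipocalin 2 (Lcn2) starves bacteria of iron by binding their siderophores. Leucine-rich alpha-2-glycoprotein 1 (Lrg1) modulates TGF-beta signalling in blood vessels, Saa3 is a serum amyloid A made outside the liver, Itih4 is a heavy chain of the inter-alpha-trypsin inhibitor family, and haptoglobin (Hp) binds free haemoglobin. Slpi inhibits neutrophil elastase. Lysozyme cuts the bacterial cell wall, and the mouse has a pair of lysozyme genes, Lyz1, best known from Paneth cells of the gut, and Lyz2, best known from macrophages, granulocytes and type 2 alveolar epithelium (AT2), the cells that make surfactant.

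The control library held 8280 cells with a median of 3783.5 unique molecular identifiers (UMIs, 1 per captured transcript) and the fibrosis library 7173 cells with a median of 4292, and they shared 89 barcodes. A cell was put in 1 of 19 classes when it held at least 3 markers of that class and the share of its markers was at least 1.5 times that of any other class. This placed 82.2% of the 8025 control cells and 76.2% of the 6945 fibrosis cells that passed the filters. Classes are called "-like", since their names were rebuilt from transcripts. The AT2-like class had 1016 control and 1724 fibrosis cells, with a median of 141.5 and 139.0 UMIs of AT2 markers per cell. The other epithelial classes were small: 18 and 44 club-like, 77 and 66 ciliated-like, and 28 and 37 AT1-like cells. B-like cells (878 and 362), which are taken to make none of these proteins, served as the background for free RNA. Levels are counts per 1000000 UMIs of the class (CPM), and a difference is the log2 ratio of the fibrosis over the control CPM.

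The tandem lysozyme genes carry the most uneven pattern described below, so their upstream sequence is shown first. On GRCm38 Lyz2 lies on the minus strand of chromosome 10, from 117277331 to 117282321, and Lyz1 lies beside it on the same strand, from 117287797 to 117292868, with 5475 bases between them. Of the 150 bases before each RefSeq start site (chr10:117292869-117293018 for Lyz1 and chr10:117282273-117282422 for Lyz2, 5′ to 3′ on the minus strand), 129 are the same (86%), while of the 100 bases further out 23 are the same without gaps. Capitals mark the 21 positions that differ, compared base by base back from the start site.
Lyz1: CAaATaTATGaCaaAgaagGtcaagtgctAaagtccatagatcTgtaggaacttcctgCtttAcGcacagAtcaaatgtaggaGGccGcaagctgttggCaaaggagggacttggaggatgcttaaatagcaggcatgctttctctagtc
Lyz2: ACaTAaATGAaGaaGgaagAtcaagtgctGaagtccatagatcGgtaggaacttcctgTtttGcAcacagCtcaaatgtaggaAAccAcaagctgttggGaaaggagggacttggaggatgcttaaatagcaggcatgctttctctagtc
The transcripts differ enough to be told apart in part: 16.1% of the stretches of 50 bases in the 1263-base Lyz1 transcript also occur in Lyz2, and 17.7% in its last 500 bases. How reads matching both copies were counted is not given in the sources used here, so a small level of either gene beside a large level of the other is uncertain.

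Lcn2 and Lrg1 are the members with most UMIs among those that were past 2-fold in AT2-like cells, and the 250 bases before their start sites (minus strand, 5′ to 3′, RefSeq, GRCm38.p6) are shown for that reason. The windows are chr2:32387740-32387989 for Lcn2 and chr17:56121947-56122196 for Lrg1. Capitals mark matches to 3 patterns searched on both strands: TTCNNNGAA (STAT), TTGCNNAA (C/EBP) and AGGAAGT (ETS).
Lcn2: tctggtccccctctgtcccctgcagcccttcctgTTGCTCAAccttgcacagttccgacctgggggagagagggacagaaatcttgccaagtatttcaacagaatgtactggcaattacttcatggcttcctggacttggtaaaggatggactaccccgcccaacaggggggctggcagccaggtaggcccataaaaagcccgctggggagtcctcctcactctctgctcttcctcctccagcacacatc
Lrg1: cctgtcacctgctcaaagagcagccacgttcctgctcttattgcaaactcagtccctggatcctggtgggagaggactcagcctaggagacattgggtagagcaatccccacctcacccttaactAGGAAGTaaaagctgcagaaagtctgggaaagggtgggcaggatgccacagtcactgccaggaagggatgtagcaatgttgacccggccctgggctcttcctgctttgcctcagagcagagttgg
Lcn2 has 1 C/EBP match, starting 216 bases before the start site, and Lrg1 has 1 ETS match, starting 125 bases before it. Over 32851 promoter windows of 300 bases, the shares that hold each pattern are 8.30% for STAT, 10.8% for C/EBP and 9.35% for ETS. RefSeq windows matched 7 of the 8 genes, all but Hp. The C/EBP pattern also occurs in Slpi, Saa3 and Lyz1, the STAT pattern in Itih4 alone of the 7, and the ETS pattern in both lysozyme genes, where it starts 100 bases before the start site of each. These are matches of letters and show no binding.

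Each gene had its own map of cell classes, and the word epithelial described some of them better than others. AT2-, AT1-, club- and ciliated-like cells together held 86.5% of all Itih4 UMIs in the control against 84.1% in the fibrosis library, and 80.4% and 85.4% of all Lyz1 UMIs. For Lcn2 the epithelial share was 32.4% in the control against 78.4% in the fibrosis library, for Lrg1 26.1% and 70.6%, and for Lyz2 34.7% and 58.0%. For Hp it was 16.9% and 36.5%, with 35.2% and 55.1% of its UMIs in cells that met no class. UMIs of such cells count in the total and not in the epithelial share. The epithelial share was lowest for Slpi, at 3.07% and 19.9%, and for Saa3, at 0.726% and 9.80%. So Saa3 and Slpi were mainly outside the epithelium in these libraries, against the name of the group. These shares also move with the number of cells: neutrophil-like cells numbered 706 in the control against 105 in the fibrosis library, classical monocyte-like cells 1644 and 460. The plot of levels by class shows the 8 maps side by side.

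**Figure D1:**
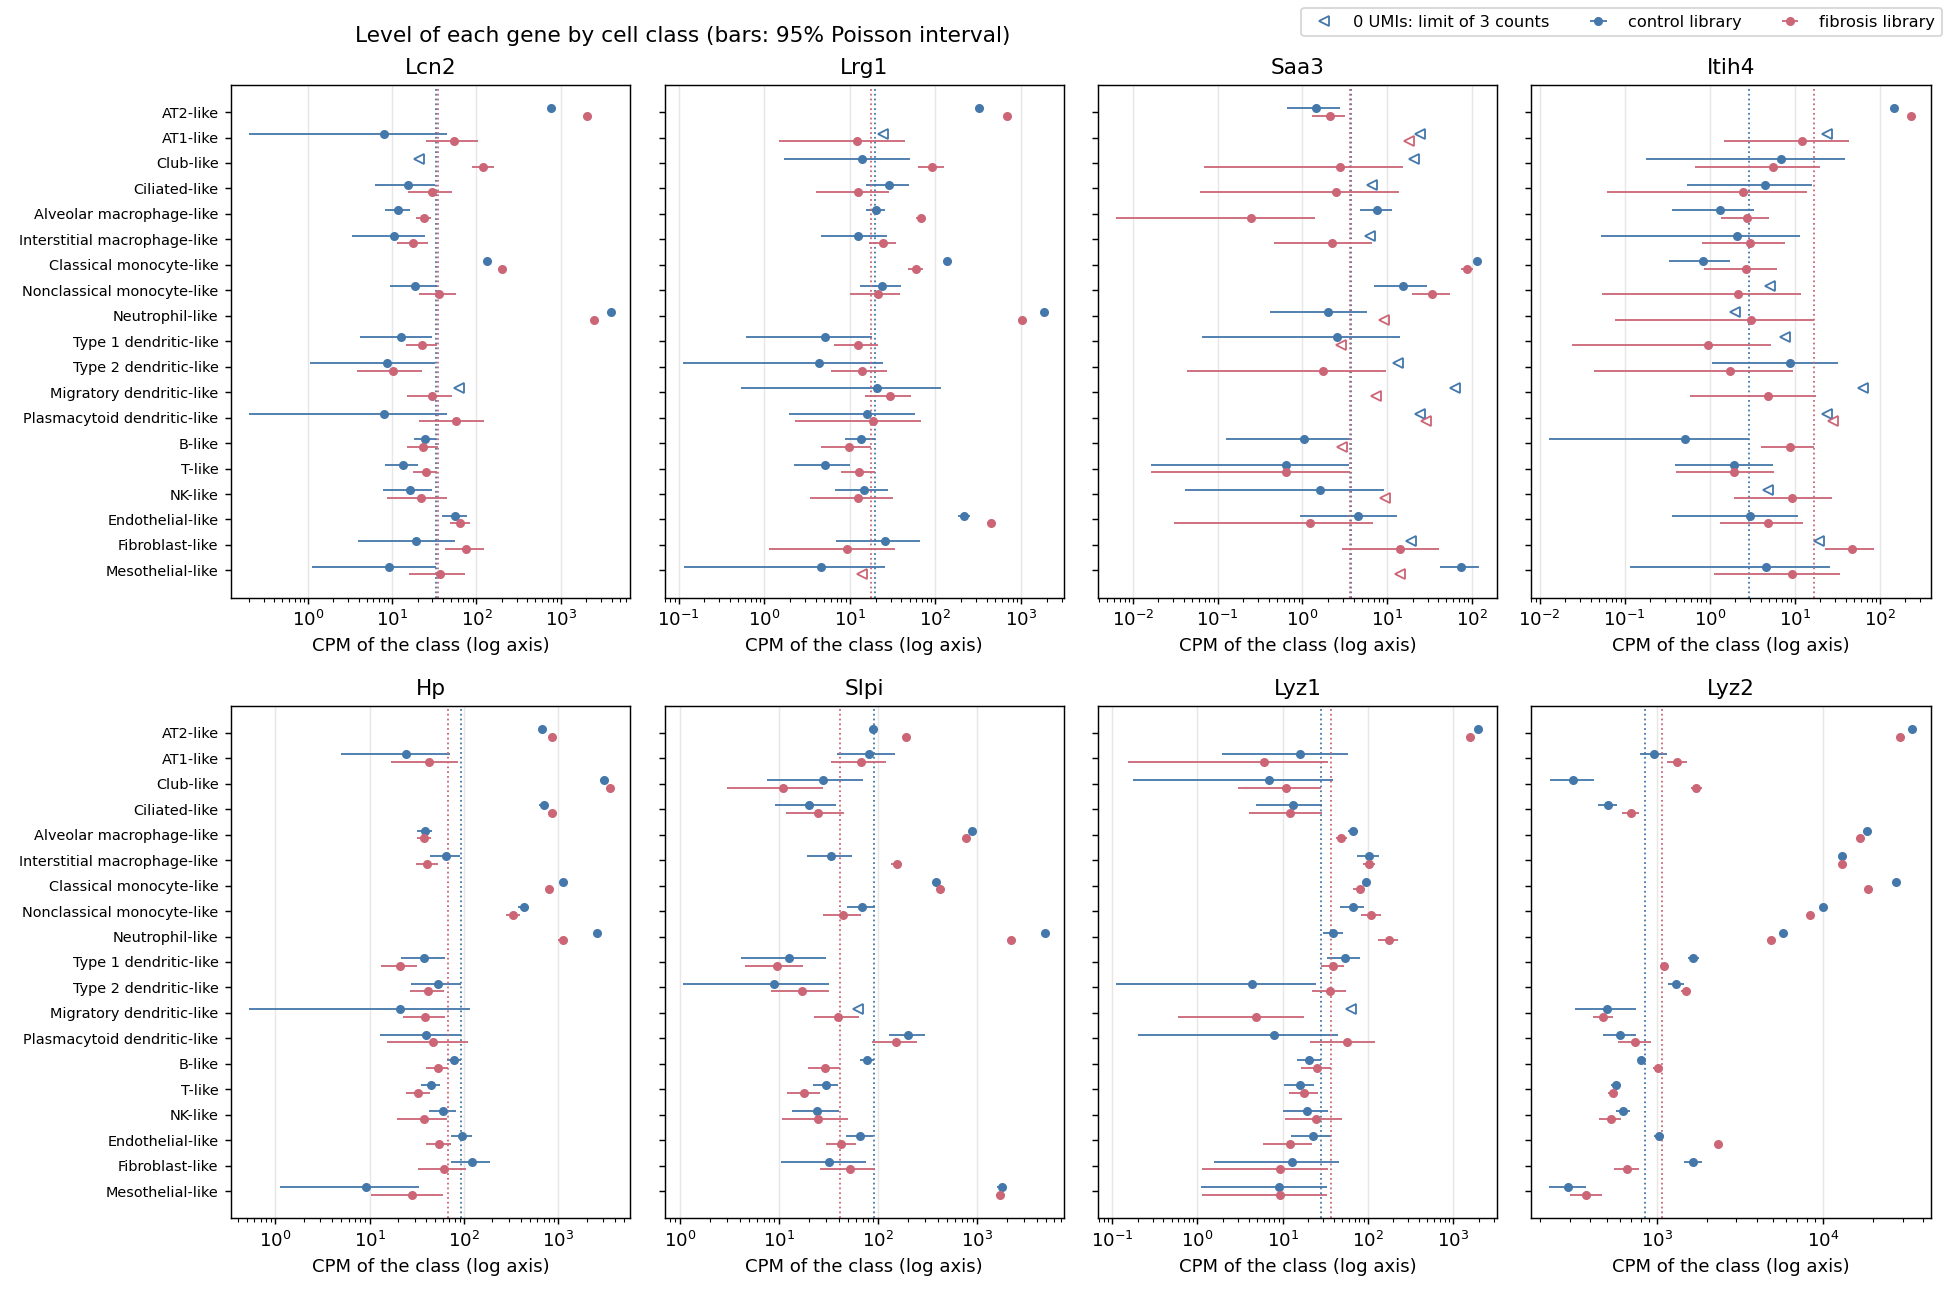
Level of each gene (CPM, log axis) in 19 cell classes, with the control library in blue and the fibrosis library in red. Points are class sums with 95% Poisson intervals, open triangles mark 0 UMIs at the limit that 3 counts allow, and dotted lines are the upper bound of the level in B-like cells. Itih4 and Lyz1 peak in AT2-like cells, while Lcn2, Lrg1 and Slpi are highest in neutrophil-like cells of both libraries.

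Lcn2 had the largest log2 ratio of the 8 genes in AT2-like cells, as measured in these cells alone. Its level there was 766.1 CPM in the control library (Poisson interval 744.5 to 788.2, 4760 UMIs) and 2015 CPM in the fibrosis library (1988 to 2043, 21209 UMIs). The fibrosis library was higher by 1.40 on the log2 scale (counting interval 1.35 to 1.44), and 2.47% of the 11674 genes tested in these cells had a larger ratio. B-like cells held 24.7 and 23.4 CPM, which is 3.23% and 1.16% of the AT2-like level. At 1000 UMIs per cell, 45.3% of control AT2-like cells (Clopper-Pearson interval 42.2 to 48.4) and 64.4% of fibrosis ones (62.1 to 66.6) had a UMI of Lcn2, against 2.05% and 2.21% of B-like cells. Without thinning these AT2-like shares were 83.7% and 92.9%. Cells that had Lcn2 also held more of it, with a mean of 1.71 UMIs per positive cell in the control against 2.75 in the fibrosis library. The share of AT2-like cells with 6 or more UMIs was 0.984% in the control against 7.02% in the fibrosis library. A higher level in every cell would also raise the share of cells with a UMI. These values therefore do not separate more positive cells from more Lcn2 in each cell. The median Lcn2 ratio of the 9 other classes where it could be tested was 0.78. This is the ratio of interstitial macrophage-like cells, from 5 and 24 UMIs, with an interval of -0.64 to 2.52. Their levels, 10.4 and 17.9 CPM, were under those of B-like cells. With this median subtracted the AT2-like Lcn2 ratio was 0.62, under 2-fold and under those of Slpi (1.61) and Hp (0.96). With the B-like CPM subtracted it was 1.43, against 3.98 for Slpi and 2.32 for Saa3. The Slpi value rests largely on a control B-like cell described below. The Saa3 value rests on 9 UMIs in control AT2-like cells (1.45 CPM), from which a level of 2 UMIs in control B-like cells (1.03 CPM) was subtracted.

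Lrg1 moved the same way in AT2-like cells. It stood at 323.7 CPM in the control (2011 UMIs) and 688.1 CPM in the fibrosis library (7241 UMIs), a log2 ratio of 1.09 (1.02 to 1.16). The level in B-like cells was 13.4 and 9.74 CPM, far under both. The thinned share of AT2-like cells with a UMI was 19.7% (17.3 to 22.3) in the control and 33.6% (31.4 to 35.9) in the fibrosis library. The B-like shares were 1.48% and 1.10%. Without thinning, 47.5% and 65.1% of AT2-like cells had a UMI. With the median ratio of the other classes subtracted, the ratio was 0.69, under 2-fold. That median, 0.40, lies between interstitial macrophage-like cells (0.97, 6 and 33 UMIs) and nonclassical monocyte-like cells (-0.17, 14 and 10 UMIs). The intervals of both, -0.30 to 2.52 and -1.51 to 1.10, span 0.

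Slpi was a minor transcript of AT2-like cells that was higher in the fibrosis library. It held 88.5 CPM in the control (550 UMIs) and 189.8 CPM in the fibrosis library (1997 UMIs), a log2 ratio of 1.10 (0.96 to 1.24). The control level lay within the interval of B-like cells, at 78.3 CPM (66.4 to 91.8), whereas B-like cells of the fibrosis library held 29.2 CPM. Of the 152 Slpi UMIs in control B-like cells, 68.4% came from 1 cell, and with a gate asking for a 2-fold lead of the first class B-like cells held 26.7 CPM beside 78.1 CPM in AT2-like cells. At 1000 UMIs per cell, 8.96% of control and 15.95% of fibrosis AT2-like cells had a UMI, against 2.51% and 1.66% of B-like cells. The Slpi ratio was under 2-fold in clusters (0.96), with each cell thinned to 1000 UMIs (0.82) and with a lower lead of the gate (0.94).

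Itih4 was mainly a transcript of AT2-like cells. AT2-like cells alone held 86.2% of its UMIs in the control against 84.0% in the fibrosis library. The level was 148.7 CPM (924 UMIs) in the control and 232.0 CPM (2441 UMIs) in the fibrosis library, a log2 ratio of 0.64 (0.53 to 0.75). B-like cells held 0.515 and 8.77 CPM, and neutrophil-like cells 0 UMIs in the control against 1 UMI in the fibrosis library. Fibroblast-like cells held 0 UMIs in the control and 46.9 CPM (10 UMIs) in the fibrosis library, and the clusters named for fibroblasts 50.6 CPM (13 UMIs) and 44.0 CPM (17 UMIs). Its gene lies on the plus strand of chromosome 14, from 30886476 to 30902353.

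Hp had a smaller log2 ratio in AT2-like cells than Lcn2, Lrg1 and Itih4. Its ratio became larger than those of Lcn2 and Lrg1, at 0.96, with the median of the other classes subtracted. The medians subtracted for Lcn2 and Lrg1 rest on few UMIs. In AT2-like cells Hp was 669.9 CPM in the control (4162 UMIs) and 866.6 CPM in the fibrosis library (9119 UMIs), a log2 ratio of 0.37 (0.32 to 0.42). The thinned share of cells with a UMI was 43.6% (40.5 to 46.7) and 49.1% (46.7 to 51.5), and these intervals nearly meet without overlapping. In B-like cells Hp went the other way, from 78.8 to 52.6 CPM. Saa3 was close to absent from AT2-like cells, with 9 UMIs over 1016 control cells and 22 UMIs over 1724 fibrosis cells, 40.9% of the latter in 1 cell. The interval of its log2 ratio, -0.65 to 1.83, spans 0.

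The lysozymes were lower in AT2-like cells of the fibrosis library. Lyz1 was 1982 CPM in the control (12315 UMIs) and 1587 CPM in the fibrosis library (16703 UMIs), a log2 ratio of -0.32 (-0.35 to -0.29). Lyz2 was 34234 CPM in the control against 29022 CPM in the fibrosis library, a log2 ratio of -0.24 (-0.25 to -0.23). In classical monocyte-like cells Lyz2 was lower by more, from 27489 to 18660 CPM (log2 ratio -0.56), and it was lower in alveolar macrophage-like cells too, from 18441 to 16655 CPM. In interstitial macrophage-like cells it was 12991 and 13049 CPM, within counting error.

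In all, 3 of the 8 genes (Lcn2, Lrg1 and Slpi) were past 2-fold higher in AT2-like cells of the fibrosis library and 0 were past 2-fold lower. Each of the 3 falls under 2-fold in at least 1 alternative given above for it. For Lcn2 and Lrg1 that alternative subtracts a median of other classes that rests on few UMIs. Over all 11674 genes tested in AT2-like cells, 4.54% were past 2-fold higher and 1.12% past 2-fold lower, and the median log2 ratio was 0.07. The median over the 8 genes was 0.59. Since the members were named with these libraries' results known, nothing is read from their count.

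**Figure D2:**
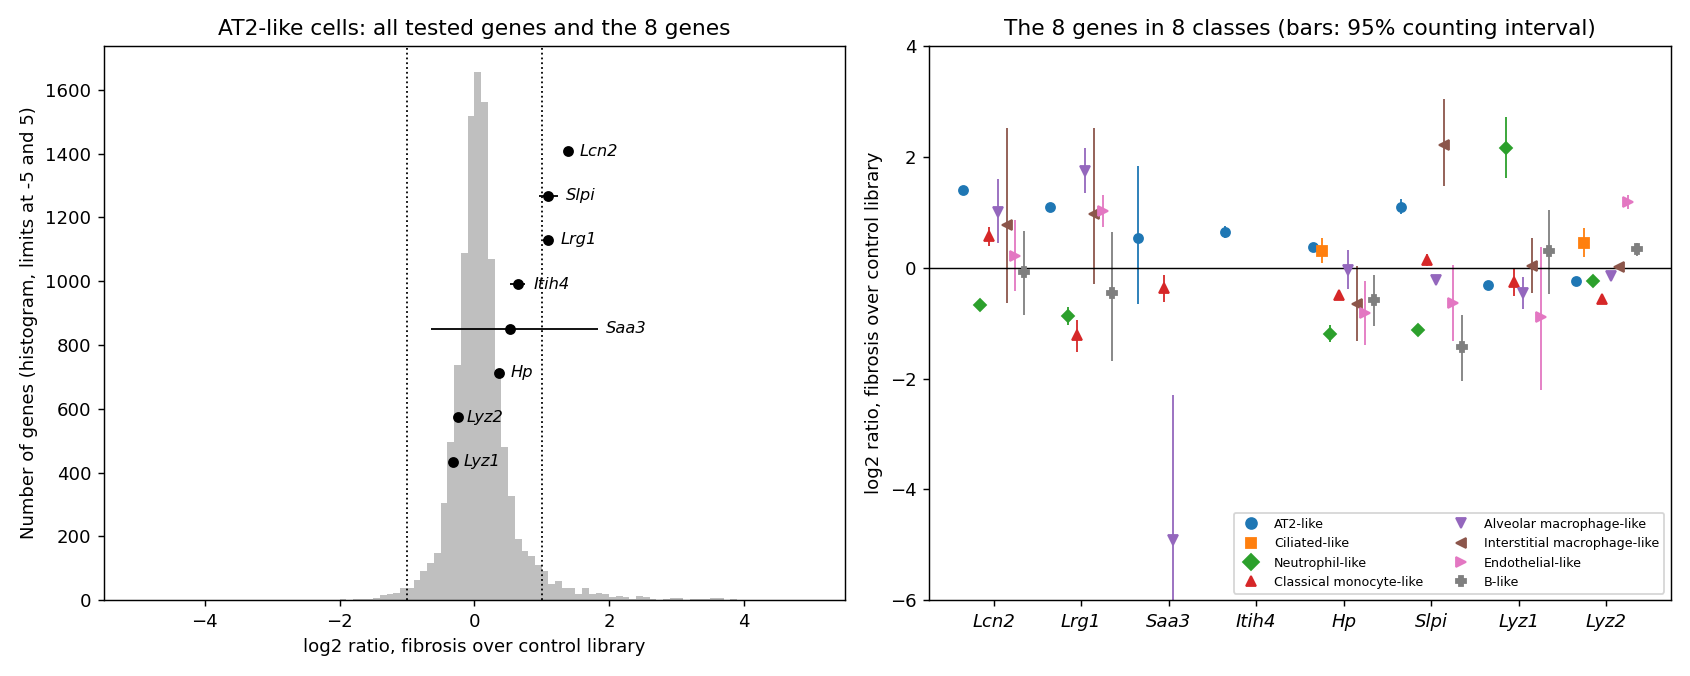
Left, the log2 ratios of all tested genes in AT2-like cells (grey histogram) with the 8 genes as points at arbitrary heights, dotted lines marking 2-fold. Right, the log2 ratio of each gene in 8 classes where it had at least 20 UMIs, with bars giving 95% counting intervals (the Saa3 interval in alveolar macrophage-like cells runs below the axis). Lcn2, Lrg1 and Slpi stand past the 2-fold line in AT2-like cells and below 0 in neutrophil-like cells.

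**Figure D3:**
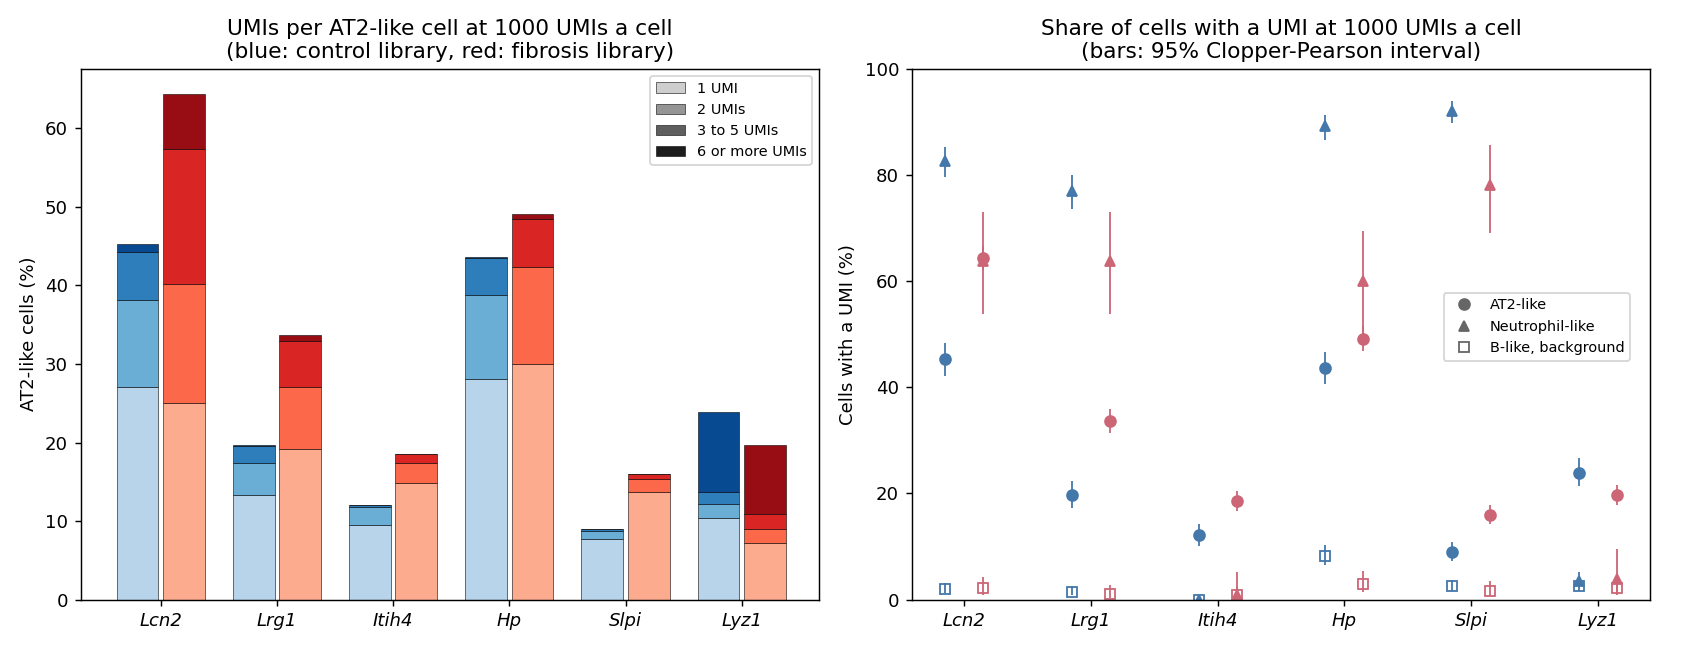
Left, the share of AT2-like cells with 1, 2, 3 to 5 and 6 or more UMIs of 6 genes after each cell was thinned to 1000 UMIs (darker is more UMIs), control in blue and fibrosis in red. Right, the thinned share of cells with a UMI in AT2-like, neutrophil-like and B-like cells, with 95% Clopper-Pearson intervals. Lcn2 gains cells in every step of UMIs from 2 upwards, while Lyz1 is absent from most cells and has 6 or more UMIs in 10.2% of control and 8.82% of fibrosis cells, beside 10.4% and 7.19% with 1 UMI.

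Lyz1 was concentrated in few AT2-like cells. After thinning to 1000 UMIs, 76.1% of control and 80.3% of fibrosis AT2-like cells had 0 Lyz1 UMIs, yet 10.2% and 8.82% had 6 or more. The top 10% of cells by Lyz1 held 89.9% of its UMIs in the control against 91.8% in the fibrosis library. For Lcn2 the top 10% held 44.0% and 42.1%, and for Lyz2 18.6% and 20.7%. The variance over the mean, which is near 1 for counting error alone, was 19.2 and 17.3 for Lyz1, 1.87 and 3.24 for Lcn2, and 1.26 and 1.498 for Hp.

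The Lyz1 share of a cell's Lyz1 plus Lyz2 UMIs separated these cells from the rest. Among AT2-like cells with at least 50 UMIs of the pair, 983 in the control against 1589 in the fibrosis library, the share was under 5% in 856 control cells (87.1%, interval 84.8 to 89.1) and 1389 fibrosis cells (87.4%, 85.7 to 89.0). It lay from 25% to 75% in 85 control cells (8.65%, 6.97 to 10.6) and 132 fibrosis cells (8.31%, 6.997 to 9.77). Between these groups, from 5% to 25%, were 36 and 63 cells, and at 75% or more 6 and 5 cells. The median share among the cells at 25% or more was 49.7% in the control against 44.6% in the fibrosis library. The proportion of cells in each range was thus close in the 2 mice, and these ranges were set after the distribution had been seen.

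The levels of both genes differed between these ranges of the share. The ranges are cut on Lyz1 over the sum of both, with a minimum on the sum. This choice of cells can itself favour less Lyz2 where Lyz1 is high, and its part in the difference was not tested. Over all AT2-like cells, without these cuts, the Pearson r of Lyz1 with Lyz2 was -0.239 (control) and -0.136 (fibrosis). In the control library, cells under 5% held 148.0 CPM of Lyz1 and 36317 CPM of Lyz2, together 36465 CPM. Cells from 25% to 75% held 19458 CPM of Lyz1 and 21324 CPM of Lyz2, together 40782 CPM. In the fibrosis library the low cells held 113.8 and 31446 CPM, together 31560 CPM, and the cells from 25% to 75% held 16594 and 20159 CPM, together 36754 CPM. The sum in cells from 5% to 25% was 35184 CPM in the control and 29005 CPM in the fibrosis library, under that of the low cells, and in the few cells at 75% or more it was 29129 and 44064 CPM. So the sum was highest from 25% to 75% in the control and had no single order with the share. Median depth was near equal, at 5800.5 UMIs in low and 5353 in mixed control cells, and 5765 and 5371.5 in the fibrosis library. The top doublet scores, set at the expected doublet rate, took 4.44% of low and 3.53% of mixed control cells, and 7.06% and 6.82% of fibrosis cells.

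Classical monocyte-like and macrophage-like cells, which also hold Lyz2 at high levels, showed almost no cells at 25% or more. By the same measure the share was under 5% in 1542 of 1544 control and 359 of 360 fibrosis classical monocyte-like cells, and in 430 of 431 and 500 of 500 alveolar macrophage-like cells. Of 45 and 95 interstitial macrophage-like cells, 44 and 92 were under 5%. The other 1 and 3 cells (2.22% and 3.16%) lay from 5% to 25%, beside 3.66% and 3.96% of AT2-like cells. Over all UMIs of a class, Lyz1 made 5.47% and 5.19% of the pair in AT2-like cells, 0.346% and 0.427% in classical monocyte-like and 0.363% and 0.293% in alveolar macrophage-like cells. B-like cells, the background for free RNA, lay in between at 2.49% and 2.44%.

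Lcn2, Lrg1, Itih4, Hp and Slpi differed by less than 1.5-fold between these cells. Taking AT2-like cells at 25% or more over cells under 5%, the log2 ratio of Lcn2 was -0.08 (-0.23 to 0.07) in the control and -0.21 (-0.28 to -0.13) in the fibrosis library. That of Hp was -0.08 (-0.24 to 0.08) and -0.19 (-0.31 to -0.07), and that of Lrg1 was -0.26 (-0.51 to -0.02) and -0.40 (-0.54 to -0.27). Lyz1 itself, which defines the groups, was 7.06 and 7.24. Of 4908 genes with at least 100 UMIs in these control cells, Lyz1 was the 1 gene past 8-fold higher, and 10 were past 2-fold higher. In the fibrosis library 1 of 6727 genes was past 8-fold and 14 past 2-fold higher.

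**Figure D4:**
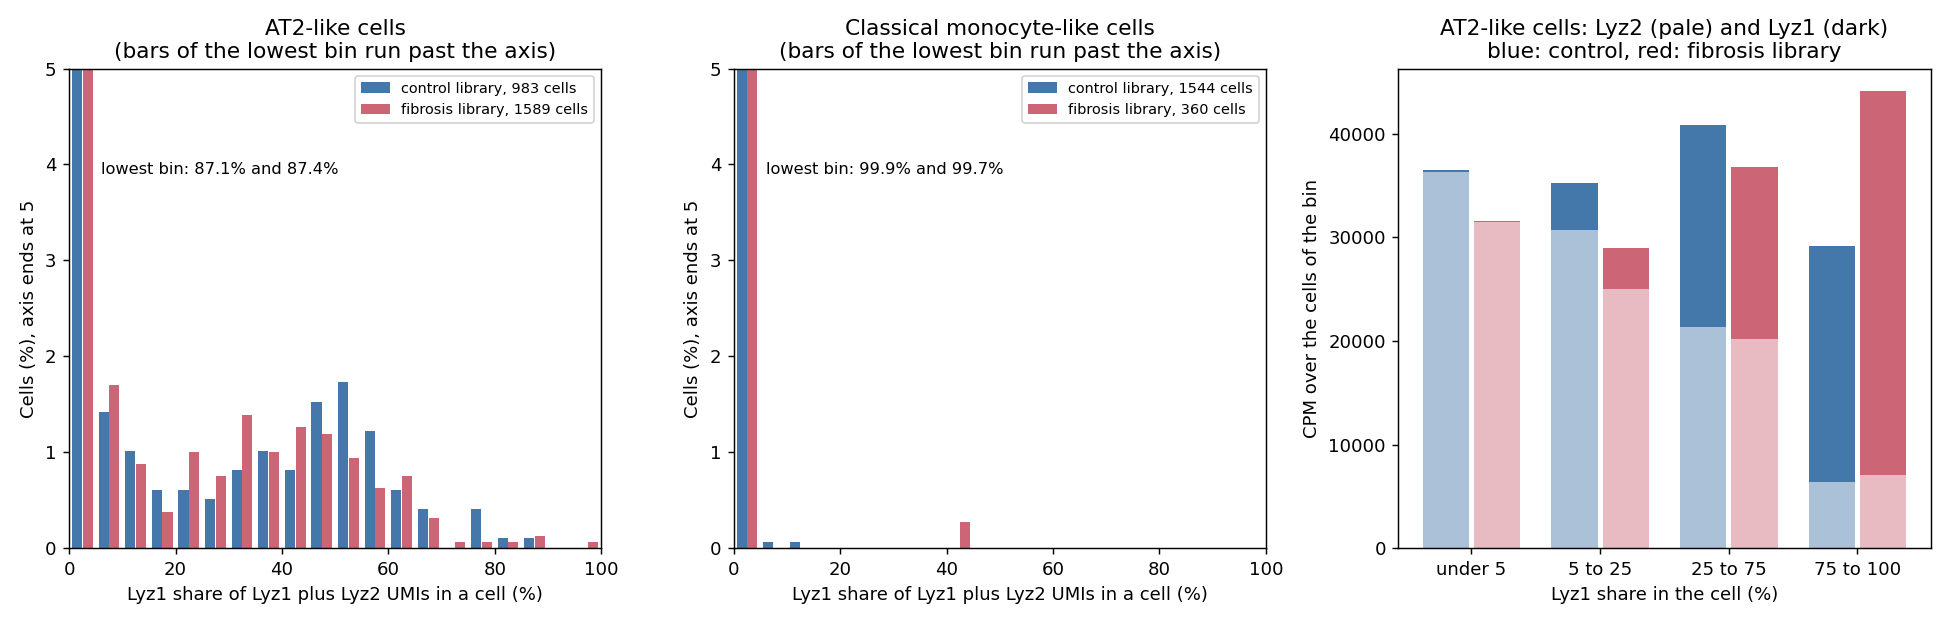
Left and middle, the percent of AT2-like and classical monocyte-like cells by the Lyz1 share of their Lyz1 plus Lyz2 UMIs, in bins of 5%, for cells with at least 50 UMIs of the pair. The axis ends at 5% of cells and the lowest bin, whose value is written in each panel, runs past it. Right, summed CPM of Lyz2 (pale) and Lyz1 (dark) in AT2-like cells by range of the share. A second group of AT2-like cells lies around equal shares in both libraries, where classical monocyte-like cells have 1 cell.

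Neutrophil-like cells had the highest CPM of Lcn2, Lrg1 and Slpi among the classes. They were shallow, with medians of 1868 and 2574 UMIs per cell beside 5663.5 and 5502.5 in AT2-like cells. The order is therefore one of CPM, and not of UMIs per cell or of the total held by a class. In neutrophil-like cells Lcn2 stood at 3965 CPM in the control (5967 UMIs) and 2499 CPM in the fibrosis library (826 UMIs). Slpi stood at 4808 and 2206 CPM, Hp at 2557 and 1120 CPM, and Lrg1 at 1872 and 1023 CPM. The log2 ratios were -0.67 for Lcn2, -1.12 for Slpi, -1.19 for Hp and -0.87 for Lrg1. They stand against a median of 0.41 over the 4976 genes tested in this class, of which 25.4% were past 2-fold higher and 5.89% past 2-fold lower. Of the gated neutrophil-like cells 92.5% in the control but 61.0% in the fibrosis library lay in clusters that were named for neutrophils, and the part of this in the ratios was not tested. With a 2-fold lead of the gate, 66 fibrosis cells remained and the log2 ratio of Lcn2 was -0.14 (-0.26 to -0.02). Those of Slpi, Hp and Lrg1 were then -0.83, -0.82 and -0.54. In the clusters named for neutrophils Lcn2 stood at 3074 and 2928 CPM, and the interval of its ratio, -0.17 to 0.03, spans 0.

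Hp was abundant in club-like cells, with the 1.5-fold lead above its level in neutrophil-like cells of both libraries, and lower in the gated ciliated-like cells. Club-like cells held 3084 CPM in the control (443 UMIs in 18 cells) and 3546 CPM in the fibrosis library (1292 UMIs in 44 cells), and 24.4% and 21.3% of these UMIs came from 1 cell. With a 2-fold lead the fibrosis value was 1182 CPM, under the 1570 CPM of neutrophil-like cells by the same gate, so the order turned. In the control it was then 2828 CPM in club-like and 2769 CPM in neutrophil-like cells. Ciliated-like cells held 699.7 and 865.8 CPM, under the neutrophil-like level in both libraries. The strict gate left out many airway cells, since 65 control and 93 fibrosis cells of the cluster named ciliated, and 29 and 63 of the cluster named club, met no class. These cells were deep, with medians of 17803 to 25723 UMIs, and the club cell secretoglobin Scgb1a1 stood at 301251 to 576051 CPM. Hp stood at 2805 and 3725 CPM in those of the ciliated cluster and at 3902 and 4454 CPM in those of the club cluster. The cells of the ciliated cluster that met no class held on average 73.3% and 81.9% of the club markers beside 95.6% and 97.6% of the ciliated markers, and in 46.2% and 59.1% of them club and ciliated were the classes with the most markers. On average they also held 66.7% and 71.4% of the AT2 markers. The unclassed cells of the club cluster held 68.1% and 78.6% of the club markers beside 60.3% and 73.6% of the AT2 markers. So the Hp of these cells cannot be given to ciliated, club or AT2 cells alone. The unclassed cells of the ciliated cluster held 16.1% of all Hp UMIs of the control and 30.9% of the fibrosis library, about as much as the 14.3% and 30.9% in AT2-like cells. The top doublet scores took 0% to 8.60% of the unclassed cells of both clusters, and the part of doublets or free RNA in their mixed markers was not tested.

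Lcn2 and Lrg1 were higher in the fibrosis library in the clusters named club and ciliated. Most of their fibrosis UMIs there lay in the cells with mixed markers that met no class. In the gated ciliated-like cells both had too few UMIs to be tested, and the intervals of their ratios span 0. Club-like cells had 0 Lcn2 UMIs in the control, which allows up to 3 counts, and 44 UMIs (120.8 CPM) in the fibrosis library. In the cluster named club, Lcn2 stood at 48.5 CPM in the control against 273.3 CPM in the fibrosis library, a log2 ratio of 2.49 (1.97 to 3.06). In the cluster named ciliated it stood at 42.4 and 258.0 CPM, a ratio of 2.61 (2.29 to 2.94). Lrg1 in the same clusters had ratios of 2.58 and 1.76. In the fibrosis library, cells that met no class held 727 of the 739 Lcn2 UMIs and 281 of the 288 Lrg1 UMIs of the ciliated cluster. In the club cluster they held 318 of 429 and 174 of 214. Lyz1, otherwise nearly an AT2-like transcript, also stood higher in the cluster named ciliated, at 9.41 and 144.2 CPM. Of its 413 fibrosis UMIs there, 408 lay in cells that met no class. The surfactant gene Sftpc stood at 6060 and 7242 CPM in the cells of that cluster that met no class. The part of AT2 RNA in these airway values was not tested. The gated ciliated-like cells of the fibrosis library held Lcn2 at 29.7 CPM (12 UMIs), within the interval of B-like cells, against 15.6 CPM (7 UMIs) in the control. The log2 ratio of Lcn2 was 0.93 with an interval of -0.53 to 2.51. Lrg1 in the gated ciliated-like cells stood at 29.0 CPM (13 UMIs) in the control against 12.4 CPM (5 UMIs) in the fibrosis library, a log2 ratio of -1.23 whose interval, -3.07 to 0.35, spans 0.

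Saa3 was mainly a transcript of classical monocyte-like cells. Classical monocyte-like cells held 76.9% of its UMIs in the control against 67.3% in the fibrosis library, at 113.4 CPM (953 UMIs) and 87.5 CPM (165 UMIs), a log2 ratio of -0.37 (-0.62 to -0.13). After thinning, 5.60% and 4.57% of these cells had a UMI. Classical monocyte-like cells also held Hp at 1116 and 795.0 CPM and Lrg1 at 137.2 and 58.9 CPM, both lower in the fibrosis library, and Lcn2 at 134.3 and 199.4 CPM, which was higher. Of the 7 members tested in this class 1, Lrg1, was past 2-fold lower, against 3.01% of its 9789 genes, and 0 were past 2-fold higher, against 4.67%.

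In macrophages and vessels the levels were lower but single members stood out. Slpi was 897.4 CPM in control and 769.7 CPM in fibrosis alveolar macrophage-like cells. Lrg1 in the same cells was 20.3 CPM (62 UMIs) in the control, against 13.4 CPM in B-like cells, and 68.0 CPM (272 UMIs) in the fibrosis library, a log2 ratio of 1.74 (1.34 to 2.16) and 1.08 in clusters. Of the 7 members tested in this class, Lcn2 and Lrg1 were past 2-fold higher and Saa3 lower, beside 2.78% and 1.83% of its 9853 genes. The Lcn2 levels behind this, 11.8 and 23.8 CPM, stood at or under the 24.7 and 23.4 CPM of B-like cells within counting error, and the ratio was 0.15 (-0.19 to 0.48) in clusters. The Saa3 count rests on 1 cell, described below. Slpi in interstitial macrophage-like cells was 33.4 CPM (16 UMIs) and 154.1 CPM (207 UMIs), of which 1 cell held 22.2%, but in the clusters of that name it was 110.1 and 72.4 CPM, so its direction turned. Of all genes tested in that class 8.14% were past 2-fold higher and 4.22% lower. Endothelial-like cells held Lrg1 at 217.6 CPM (145 UMIs) and 442.1 CPM (363 UMIs), of which 1 cell held 24.5%, a log2 ratio of 1.02 (0.74 to 1.31), and in the clusters of that name 269.5 and 402.9 CPM, a ratio of 0.58 that is under 2-fold. In this class 6.01% of 7868 genes were past 2-fold higher and 4.93% lower. Mesothelial-like cells, with 30 and 25 cells, held Slpi at 1776 and 1722 CPM.

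Several other shifts rested on 1 cell. Lyz1 in neutrophil-like cells was 39.2 CPM in the control against 175.5 CPM in the fibrosis library, where 89.7% of its 58 UMIs came from 1 cell. Lyz2 in endothelial-like cells was 1032 and 2334 CPM, with 50.5% of the latter in 1 cell, and 851.6 and 894.2 CPM with a 2-fold lead. Of the 23 Saa3 UMIs in control alveolar macrophage-like cells, 87.0% were in 1 cell, and of the 16 in control mesothelial-like cells 81.2%. No shift is read from these values.

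Related genes were taken from 3 lists and measured in AT2-like cells with the same rule of 20 UMIs. A list gene was called past 2-fold only with an interval that excludes 0, while the shares of all genes rest on the ratio alone. Among the tested list genes these rules differ for the upstream gene Tnf alone. Of 22 further acute-phase genes 7 could be tested, 4 were past 2-fold higher with an interval above 0 and 0 were lower, beside 4.54% and 1.12% of all genes, with a median log2 ratio of 1.34 beside 0.07 over all genes. The 4 were the fibrinogen chains Fgg (4.18 and 13.9 CPM, 1.73) and Fga (0.805 and 2.47 CPM, 1.62), orosomucoid Orm1 (1.29 and 3.33 CPM, 1.37) and ceruloplasmin Cp (2.74 and 6.94 CPM, 1.34). All were faint, and Fgb, the partner fibrinogen chain, had 0 UMIs in both libraries. Complement C3 was 69.5 and 117.7 CPM and the lipopolysaccharide-binding protein Lbp 56.8 and 77.2 CPM, with log2 ratios of 0.76 and 0.44.

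Of 24 antibacterial genes 15 could be tested, with 4 past 2-fold higher, 3 lower and a median of 0.05, beside 4.54% higher, 1.12% lower and a median of 0.07 over all genes. Those higher were Reg3g (1 and 21 UMIs), Bpifb1 (2 and 20 UMIs), the immunoglobulin transporter Pigr (4.67 and 18.3 CPM, 1.97) and the lipopolysaccharide co-receptor Cd14 (23.3 and 73.7 CPM, 1.66). Those lower were Bpifa1 (16 and 7 UMIs) and the neutrophil calprotectin chains S100a8 and S100a9, at -1.22 each. S100a8 was also present in B-like cells at 421.5 and 422.7 CPM, beside 618.4 and 265.7 CPM in AT2-like cells, so the fibrosis level lay under that background. No other gene of the 3 lists is set against B-like cells here. The part of free RNA or of single cells in the list counts was not tested. The collectins Sftpa1 and Sftpd, abundant in AT2 cells, had log2 ratios of -0.02 and 0.29.

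Of 22 genes upstream of the acute phase 21 were in the files and 17 could be tested. None was past 2-fold with an interval that excludes 0, and their median log2 ratio was 0.11. By the ratio alone, which gives 4.54% of all genes higher and 1.12% lower, the cytokine gene Tnf would count as higher. Tnf (5 and 18 UMIs) had a log2 ratio of 1.09 with an interval of -0.39 to 2.87. The oncostatin M receptor Osmr (25.3 and 50.2 CPM, 0.99), the STAT3 target and feedback inhibitor Socs3 (25.1 and 47.5 CPM, 0.92) and Cebpb (18.7 and 33.6 CPM, 0.85) came next by size, and were picked from the list for their size. Stat3 was 0.20. Il6 had 0 and 13 UMIs, under the minimum.

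Across 15 classes with at least 30 cells in each library, taken in both libraries as 30 points, the genes whose log2(CPM + 1) was most like each member were sought among 11634 genes. For Lcn2 they were Arg2 (Pearson r 0.81), Chil1 and Vnn3, for Lrg1 Arg2 (0.77), Sema6b and Fbxl5, and for Hp Vnn3 (0.84), Scnn1a and B230208H11Rik. For Slpi they were Wfdc21 (0.88), Fbxl5 and Clec4d, and for Saa3 Prtn3 (0.81), Nat8l and Smpdl3a. For Itih4 they were Epha7 (0.84), Snx25 and Radil, for Lyz1 the AT2 marker Lamp3 (0.82), Scx and Klk13, and for Lyz2 Dgkg (0.83), Hmox1 and Ctsc. The points share 2 libraries and unequal depth, so these are descriptions of likeness and no more.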

How the data were processed

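Single-cell RNA was measured in 2 libraries, 1 labelled control and 1 labelled fibrosis, each from 1 mouse. The authors deposited UMI counts per gene and cell as whole numbers without normalization, already limited to cells with at least 1460 (control) or 1915 (fibrosis) UMIs. Per the submitters' processing notes, bcl2fastq and Cell Ranger 1.3 were used with build mm10; parameters are not given in the sources used here. Totals were 36632591 and 38090308 UMIs.

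The members and lists were chosen with earlier results of these data known. Cells with under 200 genes (1 control cell) or over 10% mitochondrial UMIs (254 and 228 cells) were left out. Classes came from marker lists: the class with the highest share of markers detected, at least 3 of them, and 1.5 times the share of any other class. Of the marker symbols Iglc2, Trac and Trbc2, and of the lists Cebpd, did not occur in the files. Leads of 1.25, 1.5 and 2 were tried, and levels of the members under 1.5 and 2 had been seen before 1.5 was taken; the others are alternatives. Ranges of the Lyz1 share, promoter patterns and cluster settings were likewise set after the data or sequences had been seen, and an NF-kB pattern that was also tried is not reported. Doublets were scored against simulated doublets and removed only in an alternative (532 and 399 cells).

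UMIs were summed per class and library as CPM with exact 95% Poisson intervals. Ratios carry exact conditional binomial intervals, shares Clopper-Pearson intervals after each cell was thinned to 1000 UMIs (seed 1), and a count of 0 allows up to 3 counts. These cover counting error only. Genes with at least 20 UMIs over both libraries of a class were tested against 2-fold, in classes with at least 30 cells in each library. With 1 library per group no p-value was computed. The named genes were the 8 members in every class, the 3 genes most like each by Pearson r among genes with at least 200 UMIs, and list genes past 2-fold, at most 6 a list by size; others named were chosen after their values were seen. Ratio intervals and gate were tested on simulated data. Gene positions came from GENCODE M21 and upstream sequences from RefSeq, both on GRCm38. Software was numpy 2.4.6, scipy 1.17.1, pandas 2.3.3, scikit-learn 1.9.0, python-igraph 0.11.9 and matplotlib 3.10.9.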

Additional observations from a re-analysis of the deposited data

Results flagged for a closer look

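For 6 members, 2 cell classes shifted in opposite directions between the libraries, with counting intervals that exclude 0 in both classes under the 1.5-fold and the 2-fold lead of the gate, a requirement set after a first list had been seen. With 1 mouse per group, none of these differences was tested. Lcn2 was higher in AT2-like and lower in neutrophil-like cells of the fibrosis library, a difference of 2.06 between their log2 ratios, although in the clusters named for neutrophils its ratio was -0.07 (-0.17 to 0.03), so the lower level there was lost. Hp was higher in AT2-like and lower in neutrophil-like cells, a difference of 1.56. Lrg1 was higher in alveolar macrophage-like and lower in classical monocyte-like cells, a difference of 2.96. Slpi was higher in interstitial macrophage-like and lower in neutrophil-like cells, a difference of 3.33, although Slpi turned direction in the clusters named for interstitial macrophages. Lyz1 was higher in nonclassical monocyte-like and lower in alveolar macrophage-like cells, a difference of 1.18, and 1 cell held 48.1% of the 52 Lyz1 UMIs of the former in the fibrosis library. Lyz2 was higher in ciliated-like and lower in type 1 dendritic-like cells, a difference of 1.03, where the ciliated-like levels lay under those of B-like cells.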

How the results depend on the processing

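Over 13 settings (12 for Itih4, which no other class allowed to be centred), the AT2-like log2 ratios of Lcn2, Lrg1, Itih4, Hp and Slpi stayed above 0 and those of Lyz1 and Lyz2 below 0. That of Saa3 ranged from -0.07 to 2.32. Moves beyond the counting interval were as follows. With the median of the other classes subtracted, the ratio was 0.62 for Lcn2, 0.69 for Lrg1, 0.96 for Hp, 1.61 for Slpi, -0.51 for Lyz1 and -0.13 for Lyz2. The medians subtracted for Lcn2 and Lrg1 rest on few UMIs, as given above. Centred on all genes the ratio was 1.33 for Lcn2, 0.30 for Hp, -0.39 for Lyz1 and -0.31 for Lyz2. With the B-like CPM subtracted it was 3.98 for Slpi, 2.32 for Saa3, 0.46 for Hp and -0.26 for Lyz2. The Slpi value rests on the 1 control B-like cell described above, and the Saa3 value on the few UMIs given above. With every cell at the same weight it was 1.34 for Lcn2, 0.31 for Hp and -0.25 for Lyz2. Thinned to 1000 UMIs it was 1.19 for Lcn2, 0.29 for Hp, 0.82 for Slpi, -0.37 for Lyz1 and -0.25 for Lyz2. In clusters it was 0.96 for Slpi, -0.28 for Lyz1 and -0.25 for Lyz2. Without the top doublet scores it was 1.28 for Slpi, -0.27 for Lyz1 and -0.23 for Lyz2, and without the mitochondrial filter -0.28 for Lyz1. With the lower lead, an alternative added after seeing the data like the higher lead, it was 0.94 for Slpi, -0.41 for Lyz1 and -0.26 for Lyz2, and with the higher lead -0.23 for both Lyz1 and Lyz2. Slpi was therefore under 2-fold in clusters, after thinning and with the lower lead, and Lcn2 and Lrg1 were under 2-fold with the other classes subtracted; apart from what each setting subtracts or leaves out, the cause was not tested. The Lyz1 percent of the pair in AT2-like cells was 5.37 (control) and 5.27 (fibrosis) in clusters, and in the fibrosis library 5.30 without top doublet scores, 5.26 without the mitochondrial filter, 4.97 with the lower and 5.43 with the higher lead. In fibrosis classical monocyte-like cells it was 0.347 with the stricter gate and 0.361 in clusters. With a minimum of 50 or 10 UMIs, 251 or 836 genes were past 2-fold higher and 52 or 224 lower in AT2-like cells, against 530 and 131 with 20, since fewer or more genes were tested. No paired analysis was possible because each group has 1 library and no test was made. Depth limited the ratios of members with few UMIs in small classes, such as Lcn2 and Lrg1 in the gated ciliated-like cells; Saa3 in AT2-like cells was at a low level, 1.45 and 2.09 CPM.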
